A study of Mus musculus with 18 samples.

Results

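The 10 genes described here encode transcription regulators of the spermatid program, and were chosen by name: Crem, Fhl5, Rfx2, Tcfl5, Sox30, Tbpl1, Gtf2a1l, Brdt, Taf7l and Sox5. All 10 were found among the 22657 genes of the expression table. RNA-seq was performed on cultured testes of ICR mice in 18 samples, which formed 6 groups of 3. Testes came from mice that had received busulfan once (40 μg/g body weight, at 3 weeks of age) and were taken 2 weeks later, or from mice of the same age without busulfan. They were then kept for 48 h in DMEM/F12 medium with fetal bovine serum and alginate oligosaccharides (AOS, fragments of a brown seaweed polysaccharide) at 0, 10 or 50 μg/mL. The groups without busulfan were A0, A10 and A50, and the busulfan groups were B0, BA10 and BA50, where the number is the AOS concentration. All 6 groups, the controls included, had been through the same culture. Several testes went into each treatment and the methods describe repeats of the experiment, but neither the labels nor the methods say which samples belong to which repeat or animals, so p-values measure the spread between these samples, which may be partly technical. Levels are FPKM, which is scaled to gene length and to library, and changes are on the log2(FPKM + 1) scale with their standard error (SE).

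A spermatid is the haploid cell that remodels into a sperm. Its genes are switched on in a specialized way: CREM, a relative of CREB, drives many haploid genes with its coactivator FHL5 (also called ACT), and RFX2 drives genes of the sperm tail and of motile cilia. TCFL5 is a basic helix-loop-helix factor. SOX30 and SOX5 are HMG-box factors found in germ cells, SOX5 in spermatids as a short form. TBPL1, GTF2A1L and TAF7L are germ cell versions of the general factors TBP, GTF2A1 and TAF7, and BRDT is the testis member of the BET bromodomain family that reads acetylated histones. Several of these genes are first transcribed in spermatocytes, the meiotic cells that precede spermatids, and busulfan is an alkylating agent that kills dividing germ cells. In bulk tissue, fewer cells of a type and less RNA per cell cannot be told apart.

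All 10 genes were expressed in every sample, between 4.27 FPKM (Taf7l) and 122 FPKM (Gtf2a1l), and all passed the filter on low values. In A0 the order of the mean levels was Gtf2a1l (65.1 ± 11.1 FPKM, SD, n = 3), Brdt (50.1 ± 9.32), Tbpl1 (49.9 ± 7.87), Tcfl5 (49.5 ± 9.75), Taf7l (33.8 ± 1.22), Fhl5 (33.5 ± 11.9), Rfx2 (32.5 ± 6.59), Crem (30.4 ± 5.98), Sox30 (21.1 ± 5.42) and Sox5 (7.80 ± 0.983). Neighbours in this order overlapped in their samples, except Tcfl5 with Taf7l and Sox30 with Sox5. In B0 the order was Gtf2a1l (48.1 ± 13.6 FPKM, SD, n = 3), Tbpl1 (41.0 ± 9.43), Fhl5 (36.8 ± 1.29), Brdt (29.0 ± 7.65), Crem (28.6 ± 6.80), Tcfl5 (21.8 ± 6.10), Rfx2 (19.1 ± 4.87), Sox30 (15.6 ± 1.85), Sox5 (8.89 ± 1.69) and Taf7l (5.62 ± 1.44). Taf7l stood at rank 5 in A0 and last in B0, whereas Fhl5 stood at rank 6 in A0 and at rank 3 in B0.

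**Figure D1:**
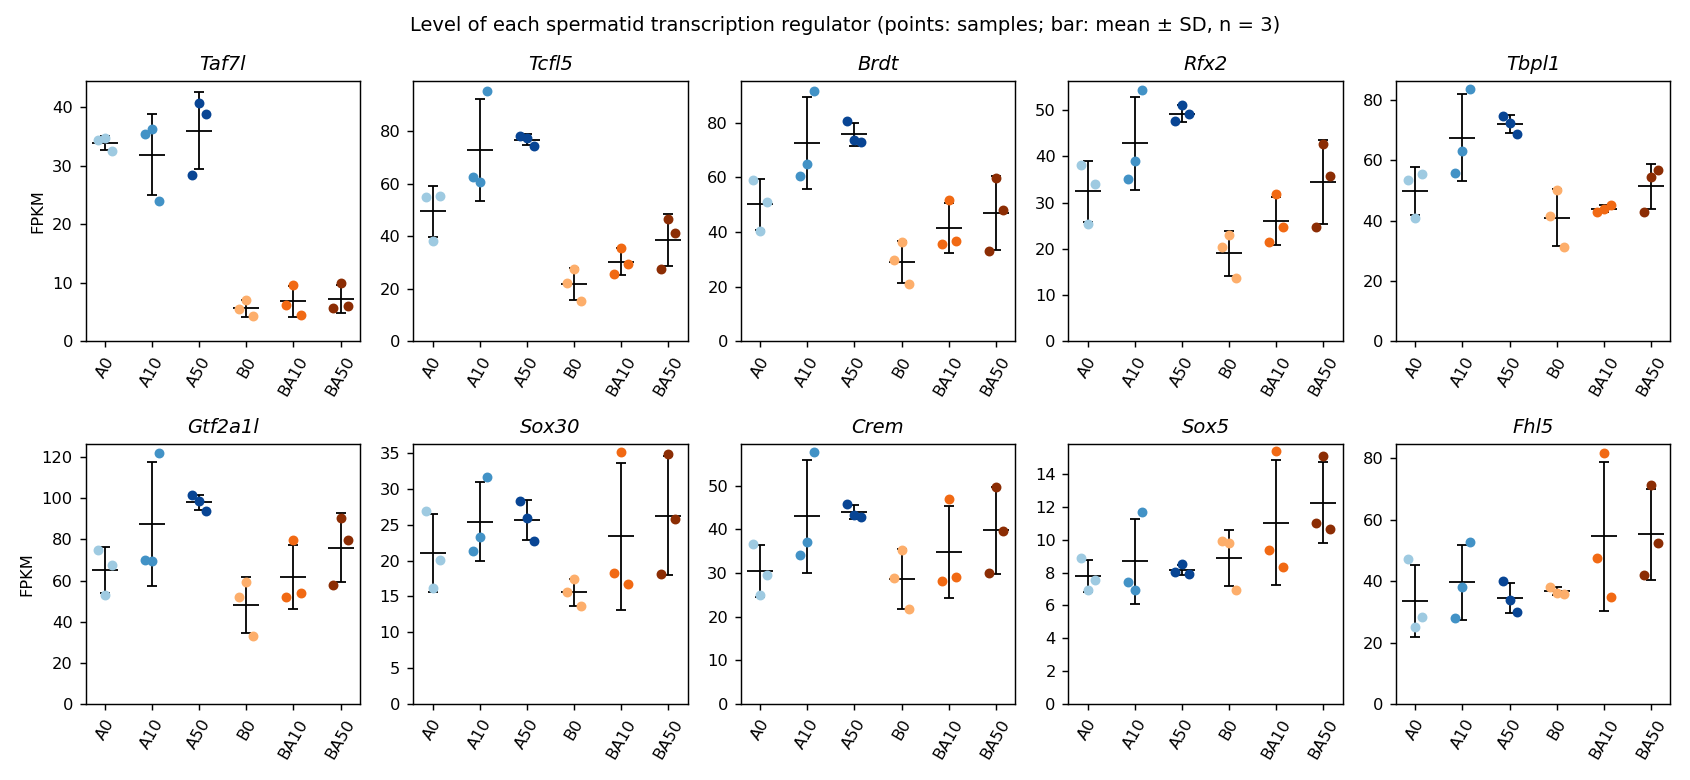
FPKM of each gene (vertical axes start at 0) in the 6 groups, with a point for each sample and the mean ± SD (n = 3). All 9 busulfan samples lie below all 9 untreated samples for Taf7l (4.27 to 9.94 against 23.9 to 40.6 FPKM), while Fhl5 and Sox5 lie as high or higher with busulfan.

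The promoters of 4 genes are shown because these genes span the responses to busulfan described further on. Taf7l fell most, Rfx2 fell by less and itself encodes a factor with a defined DNA element, Sox30 passed no test, and Fhl5 had the highest log2 change. Each line gives the 250 bases before the start site, 5′ to 3′ on the gene's strand, from RefSeq (GRCm38.p6), with 4 motifs in capitals where present: the palindromic cyclic AMP response element (CRE) bound by CREM, its shorter core TGACG, the RFX core GTTGCC and the SOX core ACAAT, each also read on the other strand (the full CRE contains the CRE core).
Taf7l, chrX:134476491-134476740, minus strand: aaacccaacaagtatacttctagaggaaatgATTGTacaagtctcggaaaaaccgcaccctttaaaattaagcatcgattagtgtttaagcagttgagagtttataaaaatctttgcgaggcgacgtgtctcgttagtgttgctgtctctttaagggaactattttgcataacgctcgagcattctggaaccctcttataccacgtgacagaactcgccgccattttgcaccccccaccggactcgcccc
Rfx2, chr17:56831009-56831258, minus strand: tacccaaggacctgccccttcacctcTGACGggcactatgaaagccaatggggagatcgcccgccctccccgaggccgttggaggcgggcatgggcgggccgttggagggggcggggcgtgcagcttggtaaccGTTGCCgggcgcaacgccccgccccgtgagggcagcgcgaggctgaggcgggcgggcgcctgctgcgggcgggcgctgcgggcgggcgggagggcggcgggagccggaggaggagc
Sox30, chr11:45980060-45980309, plus strand: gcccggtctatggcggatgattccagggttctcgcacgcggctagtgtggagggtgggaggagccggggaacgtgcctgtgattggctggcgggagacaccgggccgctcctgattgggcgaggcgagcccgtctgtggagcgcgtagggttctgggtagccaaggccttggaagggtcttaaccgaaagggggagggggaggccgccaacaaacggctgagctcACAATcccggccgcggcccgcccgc
Fhl5, chr4:25242853-25243102, minus strand: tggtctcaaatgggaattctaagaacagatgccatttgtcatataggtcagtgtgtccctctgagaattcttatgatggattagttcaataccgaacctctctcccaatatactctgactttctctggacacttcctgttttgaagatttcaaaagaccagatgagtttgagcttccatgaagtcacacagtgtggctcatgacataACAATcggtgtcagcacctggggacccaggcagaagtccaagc
The Rfx2 window held a CRE core at -224 and an RFX core at -116 from the start, the Taf7l window a SOX core at -219, the Sox30 window one at -25 and the Fhl5 window one at -43.

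In windows that also took in 50 bases after the start, 9 of the 10 genes were looked at in 10 windows (Fhl5 had 2 start sites). Crem was left out, so the counts that follow say nothing of its promoter. None of the 10 windows held the full CRE, 1 held its core, 3 held the RFX core (Rfx2, Sox5 and Gtf2a1l) and 4 held the SOX core (Fhl5, Sox5, Sox30 and Taf7l). Of all 32851 windows of this length in the same table, 1.79% held the full CRE, 20.8% the CRE core, 12.5% the RFX core and 31.0% the SOX core. A match to these short letters is a description of the window and not a binding site. By the GENCODE annotation of GRCm38, Taf7l lies on the X chromosome (positions 134460118 to 134476490) and Rfx2 on chromosome 17 (56775897 to 56831013). Tcfl5 overlaps the coding gene Col9a3 and Tbpl1 overlaps Slc2a12, both on the opposite strand, and Sox5 holds 5 antisense genes. Whether the libraries kept strand is not given in the sources used here, so the values of Tcfl5, Tbpl1 and Sox5 may include reads of these neighbours.

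The samples agreed closely within groups over all genes (Pearson r from 0.962 to 0.993 on log2(FPKM + 1)), with 14291 to 15040 genes at 1 FPKM or more. The testis label was borne out by its markers, with Sertoli cell, Leydig cell and germ cell genes in every group. Markers of other cells stood apart in B0 and in 1 sample of A10. Fat cell markers (6 genes) summed to 196 to 804 FPKM in B0 and to 42.4 to 138 FPKM elsewhere, and simple epithelium markers (5 genes, keratins among them) to 79.4 to 203 FPKM in B0 and 17.0 to 46.6 FPKM elsewhere. Sertoli cell markers (10 genes) summed to 1103 FPKM in A10 replicate 3 and to 2483 to 5359 FPKM in the other 17 samples. These sums are weighted to the most abundant marker. In the untreated samples Clu was at 882 to 3714 FPKM, most of the Sertoli cell sums. Fabp4 was at 35.9 to 80.4 FPKM there, most of the fat cell sums. A10 replicate 3 was also the highest untreated sample for 9 of the 10 regulators. B0 replicate 3 was the lowest of B0 for all 10, and replicate 2 of BA10 and of BA50 was the highest of its group for 9.

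To see what busulfan left of the spermatid regulators in cultured testes, B0 was compared to A0, BA10 to A10 and BA50 to A50, 3 comparisons that share no sample. Taf7l fell most, to 0.193 of its untreated mean level over all samples, and Tcfl5 fell to 0.456. Brdt (0.592 of the untreated mean), Rfx2 (0.638), Tbpl1 (0.720) and Gtf2a1l (0.742) were lower by smaller amounts, whereas Sox30 (0.905) and Crem (0.879) passed no test in either direction. Fhl5 (1.36) and Sox5 (1.31) had higher means with busulfan. Pooled over the 3 comparisons, 6 of the 10 genes were lower at an adjusted p under 0.05 (limma on all 15790 genes tested, Benjamini-Hochberg), and none was higher. By the same rule 24.8% of all genes tested were lower and 2097 of the 15790 were higher. The median log2 change of the 10 genes was -0.45, beside 0.01 over all genes.

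**Figure D2:**
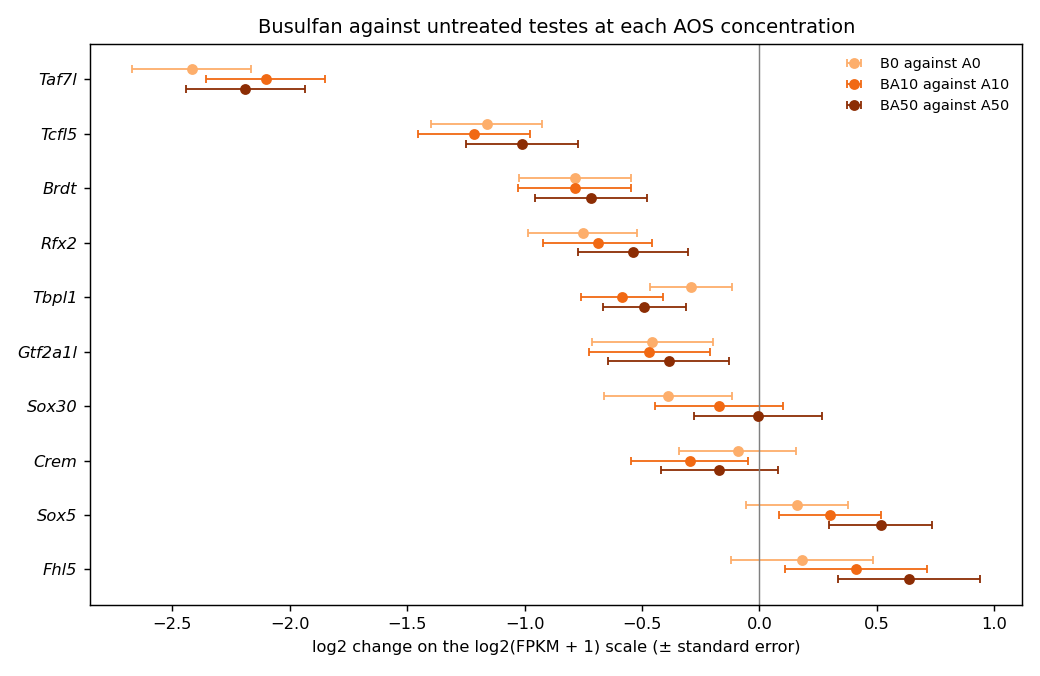
log2 change with busulfan (log2(FPKM + 1) scale, points with ± SE) for each gene at 0, 10 and 50 μg/mL AOS. Taf7l (-2.42 to -2.10) and then Tcfl5 (-1.21 to -1.01) are lowest and Fhl5 (0.18 to 0.64) is highest at each concentration, while genes between them change places.

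Taf7l, the germ cell paralog of the TFIID subunit TAF7, was at 34.43, 34.65 and 32.44 FPKM in A0, at 35.45, 36.26 and 23.90 FPKM in A10 and at 28.41, 40.63 and 38.76 FPKM in A50. With busulfan it was at 5.46, 7.13 and 4.27 FPKM in B0, at 6.24, 9.67 and 4.53 FPKM in BA10 and at 5.71, 9.94 and 5.99 FPKM in BA50. Every busulfan sample was below every untreated sample. Its log2 change was -2.42 (SE 0.253, adjusted p = 1.02e-05, limma) in B0, -2.10 (adjusted p = 3.07e-05) in BA10 and -2.19 (adjusted p = 1.67e-05) in BA50. It was the single one of the 10 genes to pass the limits of the study's methods (an adjusted p no greater than 0.001 together with a 2-fold difference, 1 on the log2 scale) in each comparison, limits that 2.54%, 3.01% and 3.39% of all genes passed at 0, 10 and 50 μg/mL AOS. Fitted on the 6 samples of the comparison alone, Taf7l had an adjusted p of 0.0079 in BA10 and 0.0020 in BA50 and so no longer passed the limit of 0.001.

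Tcfl5, a factor of late meiotic and haploid cells, was at 54.99, 38.25 and 55.28 FPKM in A0 and at 22.37, 27.66 and 15.49 FPKM in B0. It was at 62.59, 60.56 and 95.14 FPKM in A10, against 25.78, 35.71 and 29.61 FPKM in BA10. With 50 μg/mL AOS it was at 78.25, 77.56 and 74.43 FPKM without busulfan and at 27.45, 46.59 and 41.37 FPKM with it. The groups did not overlap at any AOS concentration. The log2 changes were -1.16 (adjusted p = 0.0035, SE 0.238), -1.21 (adjusted p = 0.0020) and -1.01 (adjusted p = 0.0065), and the pooled change of -1.13 (SE 0.137, adjusted p = 9.87e-06) passed the study's limits, as did that of Taf7l (-2.24, SE 0.146, adjusted p = 1.30e-08) and 3.61% of all genes.

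Brdt, which compacts acetylated chromatin in spermatids, was at 59.08, 40.49 and 50.86 FPKM in A0 and at 29.69, 36.33 and 21.08 FPKM in B0. In A10 it was at 60.69, 64.91 and 91.74 FPKM and in BA10 at 35.62, 51.90 and 36.88 FPKM, and in A50 at 80.64, 73.75 and 72.80 FPKM and in BA50 at 32.97, 59.78 and 48.05 FPKM. The busulfan samples were below the untreated ones in each comparison, and the pooled log2 change was -0.76 (SE 0.138, adjusted p = 0.00046).

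Rfx2 was at 38.25, 25.32 and 33.99 FPKM in A0, at 35.20, 39.08 and 54.29 FPKM in A10 and at 47.57, 51.10 and 49.22 FPKM in A50. With busulfan it was at 20.45, 23.07 and 13.64 FPKM in B0, at 21.59, 31.86 and 24.80 FPKM in BA10 and at 24.82, 42.75 and 35.75 FPKM in BA50. Here too the groups were apart at each AOS concentration, and the pooled log2 change was -0.66 (SE 0.134, adjusted p = 0.0012).

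Of the 2 general factor paralogs that fell by less, Tbpl1 had a pooled log2 change of -0.46 (SE 0.102, adjusted p = 0.0025) and Gtf2a1l one of -0.44 (SE 0.149, adjusted p = 0.031). Tbpl1 was at 55.78, 63.14 and 83.72 FPKM in A10 against 42.93, 43.80 and 45.37 FPKM in BA10, and at 74.85, 72.54 and 68.92 FPKM in A50 against 42.91, 54.54 and 56.74 FPKM in BA50. Without AOS its samples overlapped, at 53.53, 40.90 and 55.36 FPKM in A0 and 41.74, 50.04 and 31.23 FPKM in B0. Gtf2a1l ranged from 52.9 to 122 FPKM (median 74.7) without busulfan and from 32.9 to 90.6 FPKM (median 57.9) with it, and was apart between groups with 50 μg/mL AOS alone. The call of Gtf2a1l did not hold when any 1 of 9 samples was left out: A0 replicate 1 or 3, A10 replicate 3, A50 replicate 1 or 2, B0 replicate 3, BA10 replicate 1 or 3, or BA50 replicate 1.

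Crem and its coactivator Fhl5 did not follow the genes above. Crem was at 36.75, 24.88 and 29.55 FPKM in A0 and at 28.90, 35.27 and 21.68 FPKM in B0, and its samples overlapped between groups at each AOS concentration. Its pooled log2 change was -0.19 (SE 0.143, adjusted p = 0.32). The gene-level value sums the activator and repressor forms of Crem, since the annotation holds 39 transcripts of which 32 are coding. Fhl5 was at 39.93, 33.80 and 30.08 FPKM in A50 and at 41.97, 71.38 and 52.47 FPKM in BA50, where all busulfan samples lay above the untreated ones. Its pooled log2 change was 0.41 (SE 0.175, adjusted p = 0.079).

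Neither SOX gene passed the pooled test in the main fit of all samples. Sox30 ranged from 16.2 to 31.7 FPKM (median 23.3) without busulfan and from 13.7 to 35.2 FPKM (median 18.2) with it, with a pooled log2 change of -0.19 (SE 0.157, adjusted p = 0.36). Sox5 was at 8.06, 8.53 and 7.93 FPKM in A50 and at 11.03, 15.11 and 10.65 FPKM in BA50, again without overlap, and its pooled log2 change was 0.33 (SE 0.126, adjusted p = 0.054). Its long and short forms, of which the short one is that of spermatids, are counted together here. With each sample scaled to the same distribution of values (quantile normalization), Fhl5 and Sox5 were higher at an adjusted p under 0.05, so that 8 of the 10 genes passed. With only genes of a mean of at least 5 FPKM tested, Sox5 was higher at that limit and Fhl5 was not, so that 7 passed. Leaving out 1 sample also changed these calls: Sox5 was higher at that limit without A10 replicate 3, B0 replicate 3 or BA10 replicate 3, and Fhl5 without A0 replicate 1, A10 replicate 3 or BA10 replicate 3. Quantile normalization changed the balance over all genes from 2097 higher and 3921 lower to 3514 higher and 3468 lower.

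In the single comparisons 4 genes were lower at an adjusted p under 0.05 without AOS (Taf7l, Tcfl5, Brdt and Rfx2), 4 with 10 μg/mL (Taf7l, Tcfl5, Brdt and Tbpl1) and 3 with 50 μg/mL (Taf7l, Tcfl5 and Brdt), beside 12.3%, 15.2% and 16.2% of all genes. Of these, Taf7l and Tcfl5 passed under each alternative setting and with each sample left out. The other calls in single comparisons were lost in at least 1 of these, and leaving out 1 sample left Taf7l and Tcfl5 alone in many cases: in B0 without A0 replicate 1 or 3 or B0 replicate 1 or 3, in BA10 without A10 replicate 3 or BA10 replicate 1 or 3, and in BA50 without any 1 of A50 replicates 1 to 3 or BA50 replicate 1 or 3. By overlap of samples alone, 4, 5 and 6 genes were lower in all busulfan samples of a comparison, beside 22.7%, 20.2% and 25.7% of all genes, and in BA50 2 genes (Fhl5 and Sox5) were higher, beside 16.0%. Over all 9 samples against 9, Taf7l alone was apart, and 9.66% of all genes were lower in this way. Without the comparison of B0 to A0, where fat cell and epithelium markers were high in B0, 5 genes remained lower in the pooled comparison. Gtf2a1l did not, and 3474 of the 15790 genes tested were lower at the same limit.

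The median of the 10 genes lay between those of 2 sets of germ cell genes. All 11 spermatocyte markers tested were lower with busulfan at an adjusted p under 0.05, with a median log2 change of -2.48; among them Sycp3, of the synaptonemal complex, fell by 3.28 (SE 0.0971) and Tex101, a germ cell surface protein, fell by 5.56 (SE 0.0741). Of 14 spermatid markers 1 was higher and none was lower at that limit, with a median of 0.39; Gapdhs, the sperm form of a glycolytic enzyme, had a log2 change of 0.42 (SE 0.200, adjusted p = 0.11) and Odf2, of the outer dense fibres, -0.11 (SE 0.154, adjusted p = 0.59). On the log2(FPKM + 1) scale Taf7l, at -2.24, lay beside the spermatocyte markers, and Fhl5, at 0.41, beside the spermatid markers. By ratio of mean FPKM, busulfan to untreated, Taf7l (0.193) fell less than most of the spermatocyte markers tested. Sycp2 was at 0.134 and Tex101 at 0.012, whereas Sycp1 was at 0.372. Of 9 spermatogonia markers tested, 4 were lower and 2 higher (median -0.39). Lin28a, an RNA-binding protein of undifferentiated germ cells, fell by 1.92 (SE 0.0718), Rhox13, a homeobox gene, fell by 1.68 (SE 0.0991) and Id4, of stem spermatogonia, fell by 1.32 (SE 0.0682), all past the study's limits. As a ratio of mean FPKM, busulfan to untreated, Lin28a was at 0.030, Rhox13 at 0.10 and Id4 at 0.34. The most abundant spermatogonia markers were Uchl1 at -0.03 (SE 0.123) and Etv5 at 0.28 (SE 0.0993, adjusted p = 0.037).

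Regulators that act earlier in the germline had a lower median than the 10 genes. Of 8 such genes 7 were lower (median log2 change -1.74), 6 of them past the study's limits: Stra8, which starts meiosis, fell by 4.58 (SE 0.118), Dmrt1 fell by 2.51 (SE 0.0996), Sohlh2 fell by 2.30 (SE 0.0973), Sohlh1 fell by 1.97 (SE 0.0919), Mybl1, the regulator of pachytene genes, fell by 1.52 (SE 0.0963) and Sall4 fell by 1.30 (SE 0.0736). The log2(FPKM + 1) scale understates falls of genes at low levels, so these values do not rank the genes. As a ratio of mean FPKM, busulfan to untreated, Stra8 was at 0.0014, Sall4 at 0.0059 and Sohlh1 at 0.027. Dmrt1 was at 0.083, Sohlh2 at 0.091 and Mybl1 at 0.28. Genes of the motile cilium, the class driven by RFX factors, were lower in 8 of 10 (median -0.57). Rfx2 itself was at -0.66, and its part in the fall of these cilium genes was not tested. Among them Rsph1, of the radial spoke, fell by 1.46 (SE 0.139) and Spag6l, of the central apparatus, fell by 1.25 (SE 0.137), and Tekt1, a tektin, had a log2 change of -0.24 (SE 0.157, adjusted p = 0.25).

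Genes that need CREM or other regulators named here in haploid cells had medians of the busulfan change that varied with the AOS concentration. In the contrasts of this change between no AOS and 10 or 50 μg/mL, no gene of all tested had an adjusted p under 0.05 (limma). Pooled, 1 of these 12 haploid genes was lower and none was higher at an adjusted p under 0.05 (median log2 change 0.38). None passed in the single comparisons: without AOS 8 of 12 had a lower mean (median -0.09, with Prm1 at -0.12 and Prm2 at -0.23), with 10 μg/mL 11 had a higher mean (median 0.34), and with 50 μg/mL 11 had a higher mean (median 0.89, with Prm1 at 0.93 and Prm2 at 1.05). The medians of the 14 spermatid markers were 0.01, 0.31 and 0.65 in the same order. The gene that was lower in the pooled test was Ldhc, the germ cell lactate dehydrogenase, which is already transcribed in spermatocytes (-0.58, SE 0.160, adjusted p = 0.010). The protamines Prm1 and Prm2, which replace histones in the sperm head, were at 679 to 1490 FPKM and 711 to 1465 FPKM without busulfan and at 622 to 3057 FPKM and 655 to 4128 FPKM with it, with log2 changes of 0.38 (SE 0.189, adjusted p = 0.12) and 0.42 (SE 0.220, adjusted p = 0.14). Of 7 genes that work beside CREM or hold spermatid mRNA, 3 were lower (median -0.30). These included Ybx2, a storage protein of germ cell mRNA, which fell by 0.62 (SE 0.161, adjusted p = 0.0071), and Ddx25, an RNA helicase, which fell by 0.60 (SE 0.147, adjusted p = 0.0051).

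**Figure D3:**
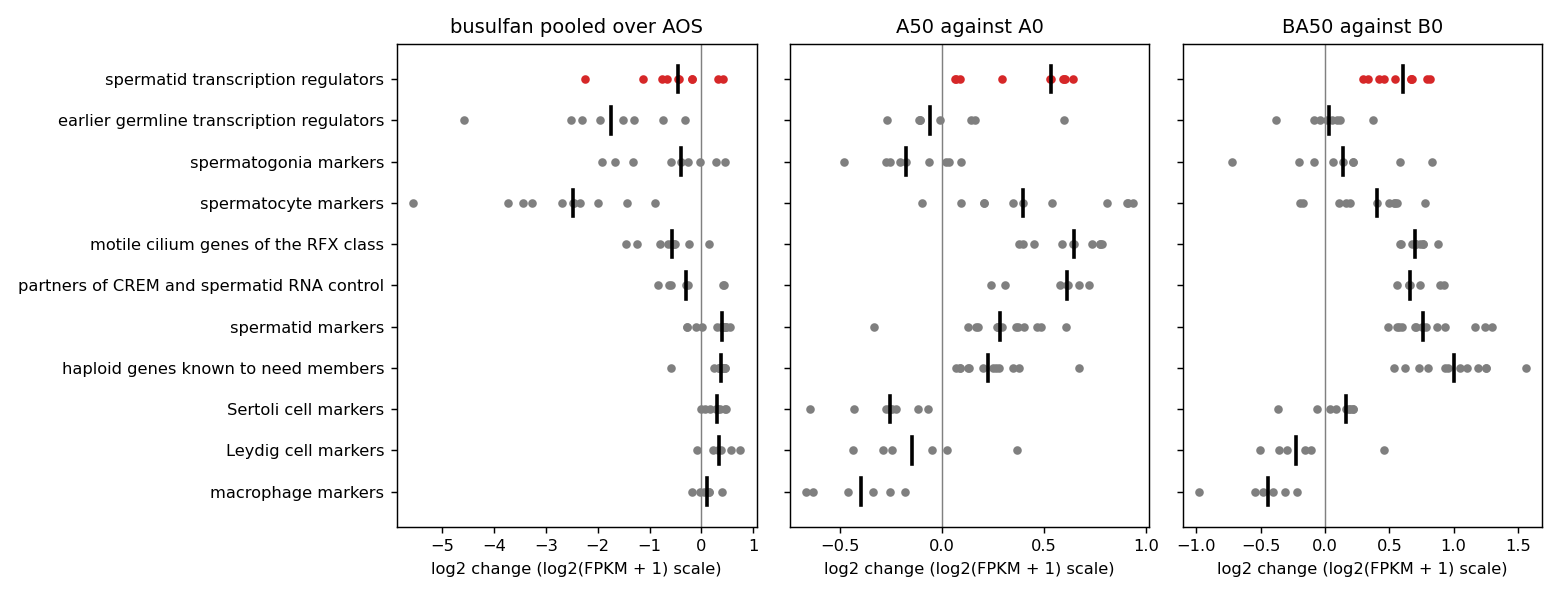
log2 change (log2(FPKM + 1) scale) of the 10 regulators (red points) and of lists of related genes and cell type markers (grey points, one per gene; black bar, median) for busulfan pooled over AOS, for A50 against A0 and for BA50 against B0. With busulfan the regulators (median -0.45) lie between spermatocyte markers (-2.48) and spermatid markers (0.39). With 50 μg/mL AOS their medians are 0.53 without and 0.60 with busulfan.

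Markers of somatic cells had smaller medians than the spermatocyte markers. Over all 15790 genes tested, 2097 were higher and 3921 lower with busulfan pooled at an adjusted p under 0.05 (limma). With busulfan pooled, 2 of 9 Sertoli cell markers tested were higher (median log2 change 0.31, with Clu at 0.45, SE 0.196, and Cldn11 at 0.29, SE 0.185), as were 1 of 6 Leydig cell markers (median 0.34, with Cyp11a1 at 0.37, SE 0.209, and Insl3 at 0.57, SE 0.236) and 1 of 6 macrophage markers (median 0.10, with Cd68 at 0.15, SE 0.149, and C1qa at 0.05, SE 0.322). None of 5 peritubular myoid markers passed (median 0.06, with Acta2 at -0.02, SE 0.231, and Tagln at 0.06, SE 0.269), nor did any of 3 red blood cell markers tested (median -0.09, with Hba-a1 at 0.49, SE 0.332, and Alas2 at -0.14, SE 0.125). All 6 fat cell markers were higher (median 1.09, with Cfd at 2.31, SE 0.382, and Fabp4 at 1.18, SE 0.205), and of 5 simple epithelium markers 3 were higher and 1 was lower (median 0.74, with Krt18 at 0.89, SE 0.225, and Epcam at -0.45, SE 0.147). The Sertoli cell median was -0.02 without AOS. It was 0.56 with 10 μg/mL (2 of 9 higher, beside 591 of the 15790 genes), where A10 held the low sample. With 50 μg/mL it was 0.34 (1 of 9 higher, beside 584 of the 15790 genes). The part of these cells in the results for the 10 genes was not tested, beyond the pooled comparison without A0 and B0 given above.

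Of the regulators, 7 were next set against a widely expressed relative within the same sample, as the log2 ratio of FPKM + 1, to ask whether busulfan changed the germ cell form more than its relative. Of the 7 pairs reported, the ratio was lower with busulfan for Taf7l to Taf7 and Rfx2 to Rfx1, and higher for Tbpl1 to Tbp and Sox5 to Sox6 (exact two-sided permutation test within AOS concentrations, 8000 arrangements, smallest possible p 0.00025, p-values not adjusted for the 7 pairs). Taf7l was 1.41 to 1.96 log2 units above Taf7 in the untreated samples and between -0.32 and 0.87 in the busulfan samples, a difference of -1.52 (exact p = 0.00025). Taf7 itself fell by 0.71 (SE 0.0620, adjusted p = 2.91e-07, limma), from 8.28 ± 0.0985 FPKM in A0 to 5.26 ± 0.950 FPKM in B0 (SD, n = 3). The ratio of Rfx2 to Rfx1 was also lower in all 9 busulfan samples (1.04 to 1.68) than in the 9 untreated ones (1.73 to 2.57), with a difference of -0.84 (exact p = 0.00025).

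The TBP pair went the other way. Tbp, the TATA-binding protein, was at 39.2 ± 3.33 FPKM in A0, 51.9 ± 10.4 in A10 and 53.6 ± 2.01 in A50, and at 25.1 ± 5.19 FPKM in B0, 25.7 ± 1.26 in BA10 and 30.0 ± 1.59 in BA50 (SD, n = 3). Its pooled log2 change was -0.81 (SE 0.0828, adjusted p = 1.64e-06, limma), so that the ratio of Tbpl1 to Tbp was 0.57 to 0.91 with busulfan and 0.20 to 0.47 without it, with no overlap and a difference of 0.35 (exact p = 0.00025). Gtf2a1, the large TFIIA subunit, fell by 0.44 (SE 0.0581, adjusted p = 2.41e-05, limma), as Gtf2a1l did, and their ratio did not change by a measurable amount (difference 0.00099, exact p = 0.995). The ratio of Sox5 to Sox6 differed by 0.48 (exact p = 0.0005), that of Fhl5 to Fhl2 by 0.28 (exact p = 0.27) and that of Crem to Creb1 by -0.18 (exact p = 0.37). Over the 18 samples Gtf2a1l was 4.86 to 16.0 times as high as Gtf2a1 in FPKM and Tbpl1 1.15 to 1.90 times as high as Tbp, whereas Taf7l ranged from 0.767 to 4.23 times Taf7.

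**Figure D4:**
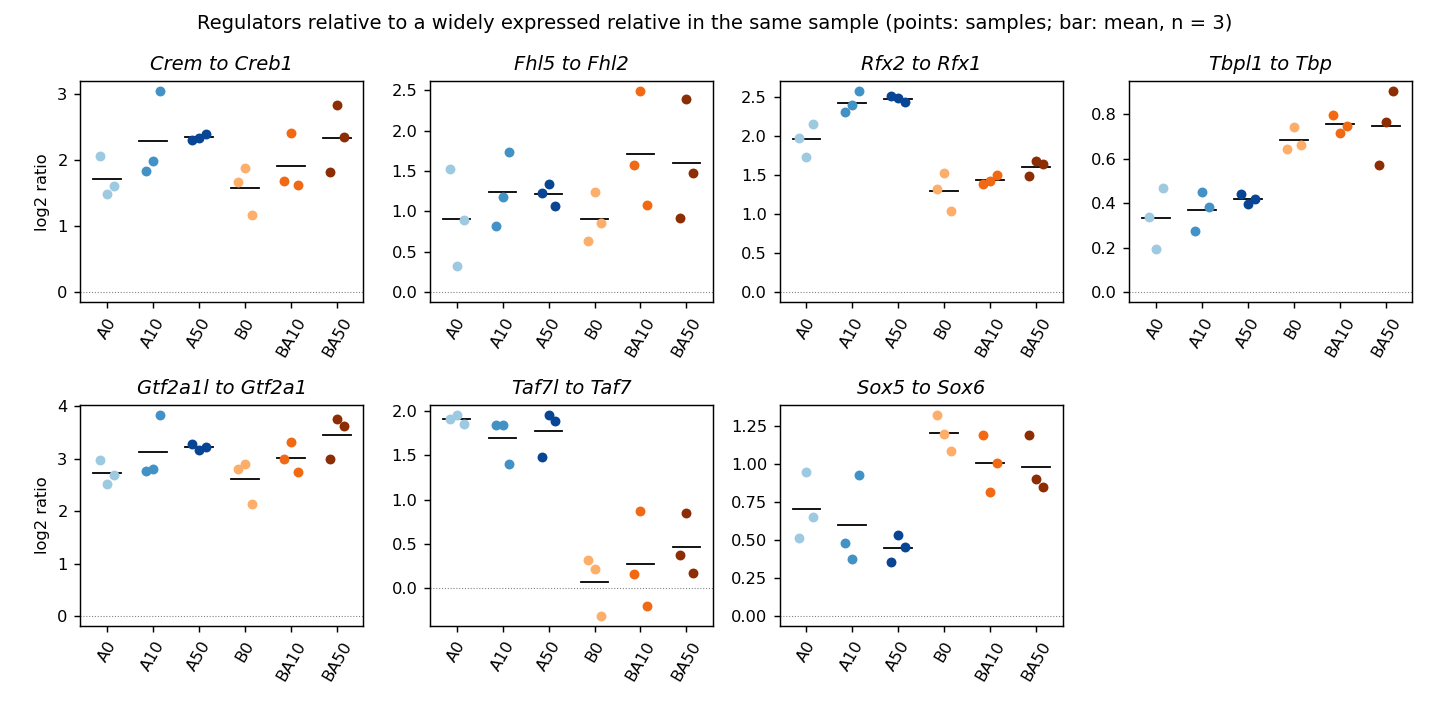
log2 ratio of (FPKM + 1) of 7 regulators to a widely expressed relative, with a point for each sample and a bar for the mean of each group (n = 3). The ratios of Taf7l and Rfx2 are lower, and that of Tbpl1 is higher, in all 9 busulfan samples than in the 9 untreated samples.

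AOS was added in culture to ask whether it acts on the testis directly. Compared to A0, the mean of 9 of the 10 genes was higher in A10 (all but Taf7l) and that of all 10 in A50. Compared to B0, the means of all 10 were higher in both BA10 and BA50. No gene of the 10 had an adjusted p under 0.05 (limma), with the smallest adjusted p at 0.32 (A10), 0.22 (A50), 0.75 (BA10) and 0.11 (BA50). At that limit 0 of all genes passed in A10 and in A50. In BA10 0 genes were higher and 4 lower, and in BA50 1 was higher and 14 were lower. At the study's limits 0.0% of all genes passed in any of these 4 comparisons. The median log2 changes were 0.38, 0.53, 0.41 and 0.60, beside -0.06, -0.06, -0.03 and -0.04 over all genes. At an unadjusted p under 0.05, 3 of the 10 genes were higher in A10 (beside 4.51% of all genes) and 6 in A50 (beside 9.85%), and with busulfan 1 was higher at 10 μg/mL (beside 1.89%) and 5 were at 50 μg/mL (beside 12.7%), and none was lower. Sertoli cell markers had lower means in A10, with 6 of 9 tested lower at an unadjusted p under 0.05 (beside 10.7% of all genes; median -0.76, with Clu at -0.89 and Cldn11 at -0.77), as had 2 of 6 macrophage markers (median -0.48), and none of these had an adjusted p under 0.05. Summed, Sertoli cell markers were at 3152 to 4335 FPKM in A0, 1103 to 2820 FPKM in A10 and 2517 to 3356 FPKM in A50, where 1 of 9 was lower at that limit (beside 5.8% of all genes; median -0.26). Their part in the changes of the 10 genes was not tested. The comparisons of A10 and of A50 share A0, and those of BA10 and of BA50 share B0. Single samples weighed on these medians: in A10 the median was 0.16 without A10 replicate 3 and 0.23 without A0 replicate 2, in BA10 it was 0.15 without BA10 replicate 2 and 0.18 without B0 replicate 3, and in BA50 it was 0.40 without BA50 replicate 2. With 1 sample left out, the direction turned for Taf7l and Sox5 in A10, for Fhl5, Sox5 and Taf7l in A50 and for Taf7l and Tbpl1 in BA10.

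**Figure D5:**
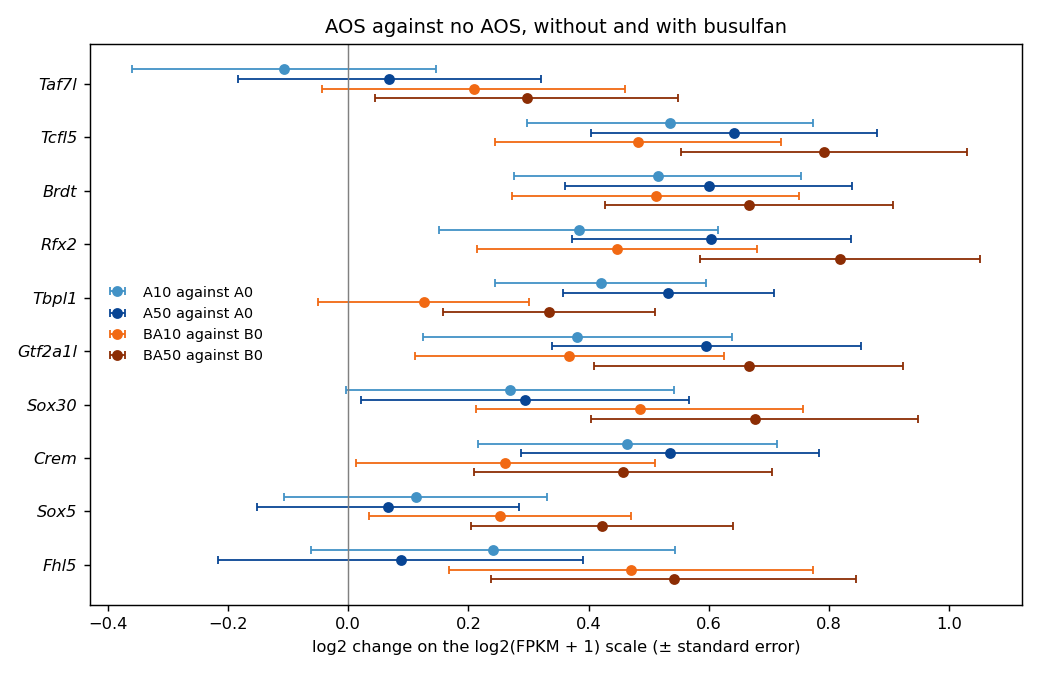
log2 change with AOS (log2(FPKM + 1) scale, points with ± SE) for each gene, against A0 for the untreated and against B0 for the busulfan testes. Nearly all points lie above 0, up to 0.82 for Rfx2 in BA50, and none passed an adjusted p of 0.05.

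With 50 μg/mL the larger values were those of Tcfl5, Rfx2, Brdt and Gtf2a1l without busulfan and of Rfx2 (0.82), Tcfl5 (0.79), Sox30 (0.68), Brdt (0.67) and Gtf2a1l (0.67) with it. Without busulfan, Tcfl5 had means of 49.5 ± 9.75 FPKM in A0 and 76.7 ± 2.04 FPKM in A50 (SD, n = 3), and every A50 sample was above every A0 sample. Its log2 change was 0.64 (SE 0.238, adjusted p = 0.26, limma). This separation was also seen for Crem (0.54), Rfx2 (0.60), Tbpl1 (0.53), Gtf2a1l (0.60) and Brdt (0.60), 6 genes in all, beside 17.6% of all genes. In A10 the samples of 3 genes (Tcfl5, Tbpl1 and Brdt) were above those of A0, beside 7.81% of all genes. A0 replicate 2 was the lowest of its group for 9 of the 10 genes, and A10 replicate 3 the highest of its group for the same number.

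With busulfan, Rfx2 had means of 19.1 ± 4.87 FPKM in B0, 26.1 ± 5.25 in BA10 and 34.4 ± 9.04 in BA50 (SD, n = 3). Its log2 change in BA50 was 0.82 (SE 0.233, adjusted p = 0.11, limma). In BA50 4 genes (Rfx2, Fhl5, Sox30 and Sox5) lay above all B0 samples, beside 11.2% of all genes, and in BA10 none did, beside 3.64%. The samples of BA50 and B0 with the same number deviated together, and with the replicate number as a block among the busulfan samples Rfx2 passed (adjusted p = 0.048, with 325 genes higher and 263 lower over all genes) and Tcfl5 did not (adjusted p = 0.051). Without BA50 replicate 1, the lowest of its group for 9 of the 10 genes, Rfx2, Tcfl5 and Brdt had an adjusted p under 0.05 (limma). Leaving out the lowest sample raises the change, and the share of all genes is not given for this fit. No gene of the 10 passed with any other sample of B0 or BA50 left out. Fat cell and simple epithelium markers were lower in BA50 than in B0 (medians -2.03 and -2.84), and their part in the changes of the 10 genes was not tested.

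No gene of the haploid, motile cilium, spermatid or spermatocyte lists had an adjusted p under 0.05 with 50 μg/mL AOS. In BA50, 10 of 12 haploid genes (median log2 change 1.00), 9 of 10 motile cilium genes (median 0.70) and 7 of 14 spermatid markers (median 0.76) were higher at an unadjusted p under 0.05, as were 4 of 11 spermatocyte markers (median 0.40), beside the 12.7% of all genes. In A50 the counts were 1 of 12 (median 0.22), 8 of 10 (median 0.65), 1 of 14 (median 0.28) and 5 of 11 (median 0.40), beside 9.85% of all genes, and Tssk6, a kinase of spermatids named because it alone of the spermatid markers had a lower mean, was at -0.33 (SE 0.341). Prm2 had a log2 change of 1.56 (SE 0.382, adjusted p = 0.10, limma) in BA50 and of 0.28 (SE 0.382, adjusted p = 0.68) in A50.

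The AOS change of the 10 genes did not differ measurably between busulfan and untreated testes. The differences of the changes ranged from -0.29 (Tbpl1) to 0.32 (Taf7l) at 10 μg/mL and from -0.20 (Tbpl1) to 0.45 (Fhl5) at 50 μg/mL, with SEs of 0.249 to 0.429, and the smallest adjusted p was 0.91 at 10 μg/mL and 0.95 at 50 μg/mL (limma). None of the 10 had an unadjusted p under 0.05 in either, and the share of all genes at that limit is not given. At an adjusted p under 0.05, 0 of all genes tested were higher and 0 were lower in either contrast. At the study's limits 0.0% of all genes passed. These contrasts are also those of the busulfan change between AOS concentrations.

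Across the 18 samples, which share the groups and their libraries, the 10 genes varied together to different degrees. Rfx2, Tcfl5 and Brdt were most alike (Pearson r from 0.96 to 0.98 on log2(FPKM + 1)), and Fhl5 was most like Sox5 (r = 0.88). Fhl5 and Sox5 had r of -0.38 and -0.40 with Taf7l. The genes outside the 10 whose pattern was nearest to their mean were Stt3b, Nsun7, Cfap206, Adam3 and Ankmy1 (r from 0.989 to 0.991). For the genes with the lowest and the highest pooled change, looked up after their values were seen, the nearest were Gm364 and Tex11 for Taf7l (r = 0.992 and 0.990), and Gm11780 and Hils1, a spermatid linker histone-like gene, for Fhl5 (r = 0.980 for both).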

How the data were processed

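Bulk RNA-seq of cultured mouse testes was analyzed in 18 samples, mapped to 6 groups by their labels. The values are FPKM per gene, deposited by the authors in 1 table. The submitters' processing notes name HISAT, Bowtie2, RSEM and GRCm38.p5, whereas the methods of the study name another aligner and RPKM, so the steps behind the FPKM are uncertain. Read counts and depth are unknown: among 12083 ratios of low values, 7.56% lay within 0.05 of a whole number, against 10% if spread evenly, so no reads were recovered and no count test was run. Of 20811 numeric gene IDs, 20656 matched a symbol. No pair of samples was identical.

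The 15790 genes that reached 1 FPKM in 3 samples or more were tested on log2(FPKM + 1) with limma 3.58.1 (R 4.3.3; 1 mean per group, all samples, trend, Benjamini-Hochberg), at an adjusted p no greater than 0.001 together with a log2 difference of 1 or more in either direction, and at an adjusted p under 0.05. Understatement of change is expected for low genes from the pseudocount of 1. The pooled busulfan comparison is the mean of the 3 differences. Ratios to relatives were tested by exact permutation within AOS concentrations (Python 3.11.15), and 1 further pair is not reported here; 3 samples against 3 cannot go below p = 0.1 and were not tested singly. Samples with the same number deviated together for BA50 and B0 (r = 0.56, 0.42 and 0.14) and for BA50 and BA10 (0.35, 0.67 and 0.44), and not for the other pairs of groups; a hint from the data, since neither the labels nor the methods say what a number marks. Alternatives were a pseudocount of 0.1, no filter, a mean of at least 5 FPKM, quantile normalization, no trend, only the groups compared, a replicate block and leaving out each sample; the busulfan comparison without A0 and B0 and the block among busulfan samples were added after seeing the data. The 10 genes and all lists were chosen with earlier results of these data known. Beside the 10 genes and their relatives, the 2 highest genes of each list by mean FPKM, list genes past the study's limits and the 5 genes most alike were eligible to be named.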

Additional observations from a re-analysis of the deposited data

How the results depend on the processing

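The median log2 change of the 10 genes kept its direction in the 8 comparisons of 2 treatments under the alternatives run, each sample left out included. The median difference of the AOS changes between busulfan and untreated testes did not: it ranged over -0.18 to 0.21 at 10 μg/mL and -0.031 to 0.36 at 50 μg/mL with each sample left out. The number past the study's limits changed where only the groups compared were fitted, with 0 genes for BA10 against A10 and 0 for BA50 against A50 (fewer samples to estimate the spread). It also changed with an adjusted p under 0.05 and no fold limit, with 4, 4 and 3 genes at 0, 10 and 50 μg/mL AOS and 6 pooled. With the replicate number as a block in all groups no call at the study's limits changed. At an adjusted p under 0.05 the counts were then 2, 4, 2 and 6, beside 1802, 2278, 2441 and 3831 lower over all genes. Same-numbered samples of untreated and busulfan groups were not shown to be paired. With the block among busulfan samples only and no fold limit, 1 gene passed in BA50 against B0. With no filter on low values the counts at an adjusted p under 0.05 were 2, 4, 2 and 6, beside 2212, 2655, 2849 and 4580 lower over all genes. With a mean of at least 5 FPKM they were 4, 5, 3 and 7, beside 1307, 1754, 1809 and 2834. With quantile normalization they were 4, 5, 4 and 8, beside 1502, 2234, 2308 and 3468. In the last 2 settings the pooled count took in Sox5, and with quantile normalization also Fhl5, as higher genes. Reversals were of values near 0. Sox30 in BA50 against A50 was at 0.016 under quantile normalization and ranged over -0.23 to 0.22 with each sample left out. The other ranges that crossed 0 in this way were -0.50 to 0.019 for Sox30 in BA10 against A10, -0.25 to 0.086 for Crem in B0 and -0.34 to 0.012 in BA50 against their untreated groups, -0.090 to 0.35 for Fhl5 in A50, -0.099 to 0.24 and -0.0051 to 0.15 for Sox5 in A10 and A50, -0.21 to 0.082, -0.026 to 0.22 and -0.043 to 0.43 for Taf7l in A10, A50 and BA10 against no AOS, and -0.053 to 0.28 for Tbpl1 in BA10 against B0. The ratio of Gtf2a1l to Gtf2a1 ranged over -0.060 to 0.12. The cause of these changes was not tested. The other 6 ratios kept their direction and their side of 0.05. The depth behind the FPKM is unknown, so no counting error can be given, and 3 samples per group limit what could be detected in the AOS comparisons.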
